A study of Mus musculus with 2 samples.

Results

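Long DNase I footprints found in both of 2 mouse hippocampus libraries are described here. A footprint is a short run of bases, inside chromatin open to the nuclease DNase I, that was cut less often than its surroundings. Members were chosen from the deposited footprint intervals: autosomal footprints of replicate 1 that were at least 30 bp wide and had at least 50% of their length covered by a footprint of replicate 2. The rule left 12534 members of 309409 autosomal footprints of replicate 1. The comparison set was the 34044 shared footprints of at most 10 bp, picked by the same overlap rule. The single group was hippocampus, with the tissue type labelled as layer of hippocampus. It came from B6CASTF1/J females aged 14 days, the first cross of C57BL/6J with CAST/EiJ. Each of the 2 libraries names 3 females, and no treatment is given. They are numbered as biological replicates but share a donor identifier, and separate animals are not stated, so differences between the libraries can be technical. A single group allows no test between conditions. Intervals on shares are 95% exact binomial intervals that cover counting error only. The deposited tables used here hold no read counts, so depth is unknown.

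Proteins that sit firmly on DNA shield it from the nuclease, and the length of the shielded run depends on how much DNA the protein or complex touches. CTCF, a zinc finger protein that organises chromatin loops and blocks enhancers, reads a long site with a row of zinc fingers. At tRNA genes, the factor TFIIIC holds control boxes inside the gene, the A box and the B box, and places TFIIIB in front of it, which recruits RNA polymerase III. At promoters of protein-coding genes, the CCAAT-binding factor NF-Y, SP/KLF zinc finger proteins, NRF1 and CREB-family proteins often bind next to each other.

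The sequences of 8 members with the CTCF consensus show a feature that differed between wide and narrow members. They were picked after the alignment described below was seen, by width and by match to an element in front of the consensus. Within each choice they were the members in the strongest peaks of both libraries that matched the consensus with no mismatch. The contrast between the wide and narrow examples was therefore fixed by the choice. All sequences are the reference sequence of C57BL/6J on GRCm38 (mm10), whole footprints of replicate 1, written 5′ to 3′ on the named strand, and alleles of CAST/EiJ were not looked up. Capitals mark the CTCF consensus and, in the first 4 only, an element in front of it with the letters TGCANTNCC. These first 4 members were 45 to 49 bp wide and matched all 7 fixed bases of the element:
Ptma, chr1:86501760-86501806, + strand: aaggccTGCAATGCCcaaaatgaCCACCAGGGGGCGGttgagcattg
Prok2, chr6:99804407-99804455, + strand: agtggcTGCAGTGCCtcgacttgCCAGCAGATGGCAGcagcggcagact
Srxn1, chr2:152112085-152112133, + strand: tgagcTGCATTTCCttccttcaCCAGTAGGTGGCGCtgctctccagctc
Nfil3, chr13:53119892-53119939, + strand: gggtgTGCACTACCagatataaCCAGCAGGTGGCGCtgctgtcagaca
The other 4 were 30 to 34 bp wide and matched at most 1 base of the element:
Kif1b, chr4:149307902-149307933, - strand: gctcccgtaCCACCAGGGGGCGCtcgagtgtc
Nabp2, chr10:128410015-128410048, + strand: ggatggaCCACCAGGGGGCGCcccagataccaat
Fam133b, chr5:3543760-3543790, + strand: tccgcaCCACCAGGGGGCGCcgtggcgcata
Znfx1, chr2:167072162-167072193, + strand: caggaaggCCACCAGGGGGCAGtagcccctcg
Each is named by the nearest protein-coding gene. The wide members near Ptma, Prok2 and Srxn1 lay between genes, and the one nearest to Nfil3 lay in an intron. Of the narrow ones, those at Kif1b, Nabp2 and Fam133b lay 225.5, 157.5 and 58 bp in front of a protein-coding start.

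Among the 31 consensus sequences searched, CTCF had the largest ratio between members and windows 100 bp away, 113. A few of the others, among them the tRNA B box, were added to the search after the data were seen. The CTCF consensus, 14 letters long, was searched on both strands with up to 1 mismatch in a 40 bp window at the centre of each footprint. It was present in 5297 of 12534 members, 42.3% (41.4 to 43.1). The share was 2.00% (1.85 to 2.15) in short shared footprints and 0.375% in windows 100 bp to either side of the members. In each of the 19 autosomes the long footprints had the larger share, from 37.6% to 45.8%, against 1.17% to 3.00% in the short ones. With the roles of the libraries exchanged the shares were 37.8% and 1.80%. Of all 11347 replicate 1 footprints with the consensus, 46.7% were members, while members made up 4.05% of all autosomal footprints.

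The share of CTCF consensus did not rise evenly with width. It was 42.8% at 30 to 34 bp, 33.3% at 35 to 39 bp, 38.5% at 40 to 44 bp, 55.9% at 45 to 49 bp and 37.8% at 50 bp or more. The numbers of members in these classes were 6172, 2248, 1732, 1877 and 505. Widths themselves had 2 maxima, one at the lower limit and a lower one at 45 to 49 bp, and the second was made up mostly of footprints with the CTCF consensus. Just outside the limit, 1563 shared footprints of 29 bp held the consensus in 28.7%, and just inside it 1410 members of 30 bp held it in 36.2%. Long footprints of replicate 1 without a matching footprint in replicate 2, 2699 in number, held it in 12.4%.

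**Figure D1:**
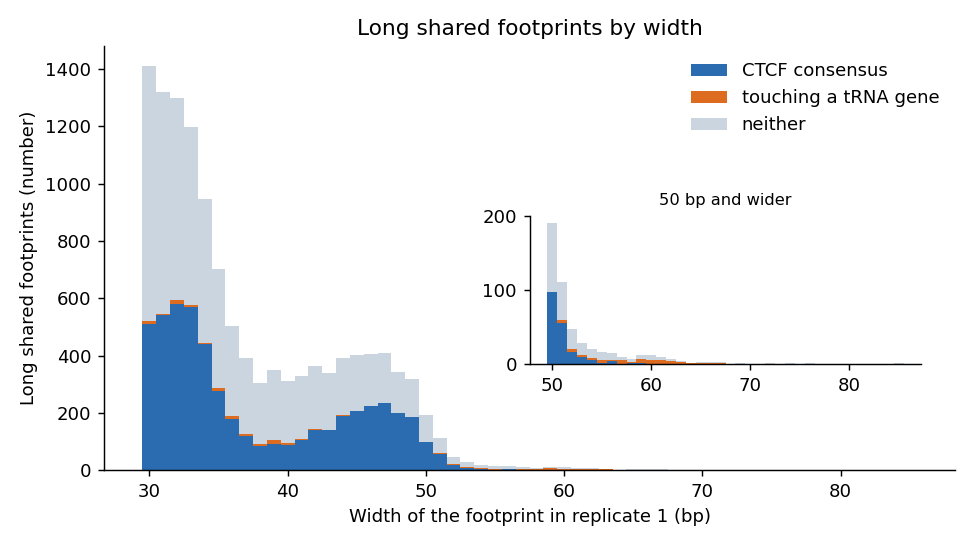
Number of long shared footprints at each width in replicate 1 (bp), with bars stacked by CTCF consensus, tRNA gene (without the consensus) and neither, and an inset for 50 bp and wider. The numbers fall from 1410 at 30 bp and rise again to a second, lower maximum between 45 and 49 bp.

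**Figure D2:**
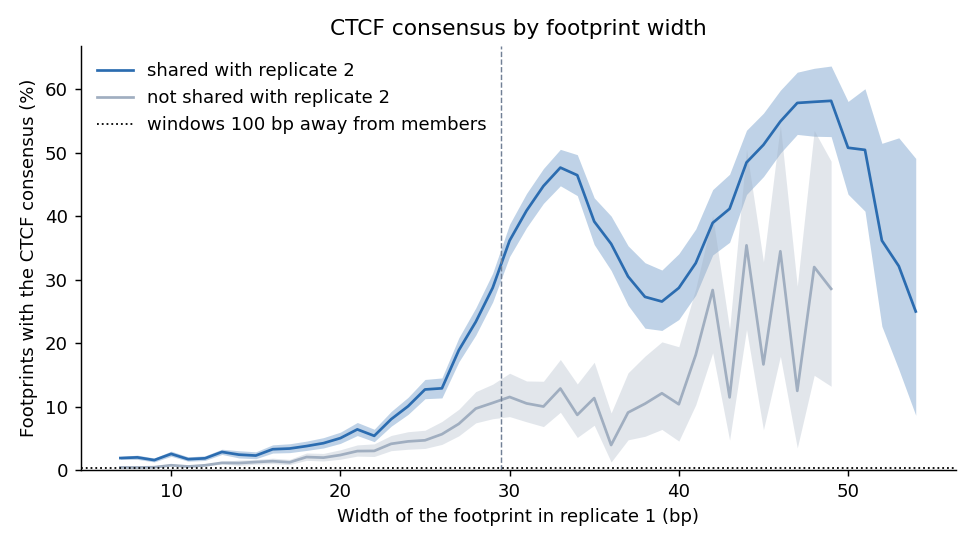
Share of replicate 1 footprints with the CTCF consensus (%) against footprint width (bp), for footprints shared with replicate 2 and not shared, with shaded 95% exact binomial intervals. The dashed line marks the lower limit of members and the dotted line the share of 0.375% in windows 100 bp away; the shared curve has a maximum on each side of 40 bp.

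CTCF reads its site in 1 direction, so the members with the consensus were turned to the same strand and the position of their edges was measured. Members of 30 to 34 bp reached a median of 6 bp in front of the consensus (quartiles 5 and 6) and 12 bp behind it (11 and 13). Members of 45 to 49 bp reached 22 bp in front (21 and 23) and 11 bp behind (9 and 12). The extra length of the second width class therefore lay almost wholly on the front side. Replicate 2 footprints, which the rule required to cover at least 50% of each member, reached 21 bp in front of the consensus (quartiles 6 and 22) at members of 45 to 49 bp and 5 bp (5 and 6) at members of 30 to 34 bp. Behind the consensus they reached 9 and 10 bp.

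The added stretch in front of the consensus held the element shown in capitals above, 17 to 9 bp before the first base of the consensus. CTCF sites are known to carry an upstream element in some copies, which further zinc fingers of the protein contact. The letters were read off these same members, so the shares are a description. At least 5 of the 7 fixed bases matched in 6.74% (5.81 to 7.76) of CTCF members of 30 to 34 bp and in 54.2% (51.2 to 57.3) of those of 45 to 49 bp. The classes between them had 11.6% and 40.5%, and members of 50 bp or more had 51.3%. At 60 bp further upstream of the consensus the share over all CTCF members was 1.15%, against 22.7% in the element's own place.

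Ordered by the element, the median width of the 5297 CTCF members went from one level to another. Members with 0, 1, 2 or 3 matching bases each had a median width of 33 bp in replicate 1 and 30 bp in replicate 2. With 4 bases the medians were 38 and 31 bp, with 5 they were 45 and 40 bp, with 6 they were 46 and 43 bp, and with 7 they were 45 and 43 bp. In replicate 2, 59.9% of the 1202 members with 5 or more matching bases were at least 40 bp wide, against 7.19% of the 2391 with 0 to 2. Width in replicate 1 was used both by the rule and in reading off the element. Peak signal around the 2 sets was 3.37 and 2.93 in replicate 1 and 1.58 and 1.57 in replicate 2, in the authors' unit, whose scaling is not stated.

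**Figure D3:**
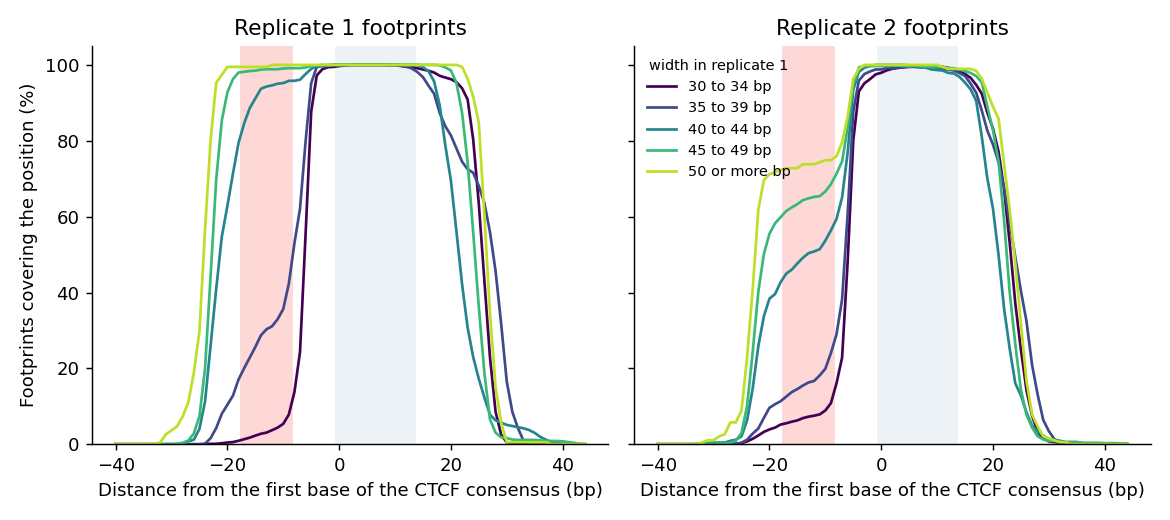
Share of CTCF members whose footprint covers each position (%), against distance from the first base of the CTCF consensus (bp), by width class in replicate 1, for the replicate 1 footprints (left) and the matched replicate 2 footprints (right). Grey marks the consensus and red the upstream element; classes of 40 bp or more extend over the red band, in replicate 2 in only part of the members.

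At 157 members a tRNA gene of the RefSeq annotation was touched, 1.25% (1.07 to 1.46) of all members against 0.173% (0.132 to 0.223) of short shared footprints. They lay on 127 of 386 autosomal tRNA genes, 32.9%, while 227 of these genes held a footprint of any width in replicate 1. The 157 fell into 2 kinds by place, 60 that started before the gene and 97 that started inside it, and 30 genes held 2 members. Of the 108 members of 55 bp or wider, 42 touched a tRNA gene, or 38.9%.

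Members in front of tRNA genes started between 54 and 21 bp before the gene and were 30 to 67 bp wide in replicate 1 and 15 to 64 bp in replicate 2. Their median span ran from 50 bp before the first base of the gene to 8 bp past it, with a median width of 58 bp (quartiles 53.75 and 61) in replicate 1 and 53.5 bp in replicate 2. Examples in the strongest peaks are shown with the bases inside the tRNA gene in capitals and the gene's own strand:
n-TTagt9, chr7:35234837-35234893, - strand: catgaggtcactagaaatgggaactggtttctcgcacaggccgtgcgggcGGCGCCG
n-TRtcg5, chr7:79466370-79466430, + strand: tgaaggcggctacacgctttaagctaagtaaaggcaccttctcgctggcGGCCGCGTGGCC
n-TStga3, chr10:63429547-63429609, - strand: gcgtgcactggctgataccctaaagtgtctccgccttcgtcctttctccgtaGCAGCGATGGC
The B box letters were found in 0 of the 60 front members.

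Members inside tRNA genes ran from a median of 39 to 74 bp past the first base, near the 3′ end of a gene whose median length was 72 bp. Their median width was 36 bp in replicate 1 and 34 bp in replicate 2. The B box letters were added to the search after the data were seen. They were found in 80 of the 97, including the following 3, with the B box in capitals:
n-TRtcg5, chr7:79466453-79466496, + strand: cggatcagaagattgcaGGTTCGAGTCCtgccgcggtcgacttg
n-TLaag4, chr7:120917563-120917603, + strand: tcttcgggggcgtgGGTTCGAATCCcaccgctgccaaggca
n-TStga3, chr10:63429481-63429511, - strand: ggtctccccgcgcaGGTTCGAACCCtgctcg
Between the front and inner members, the stretch from 15 to 31 bp past the start of the gene was covered by no member of either kind. Median signal of the surrounding peak was 9.69 in replicate 1 and 3.96 in replicate 2 for the front members, and 5.71 and 2.95 for the inner ones. Copies of a tRNA gene are near-identical, so reads may have been split between them, and the effect on these counts was not tested.

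**Figure D4:**
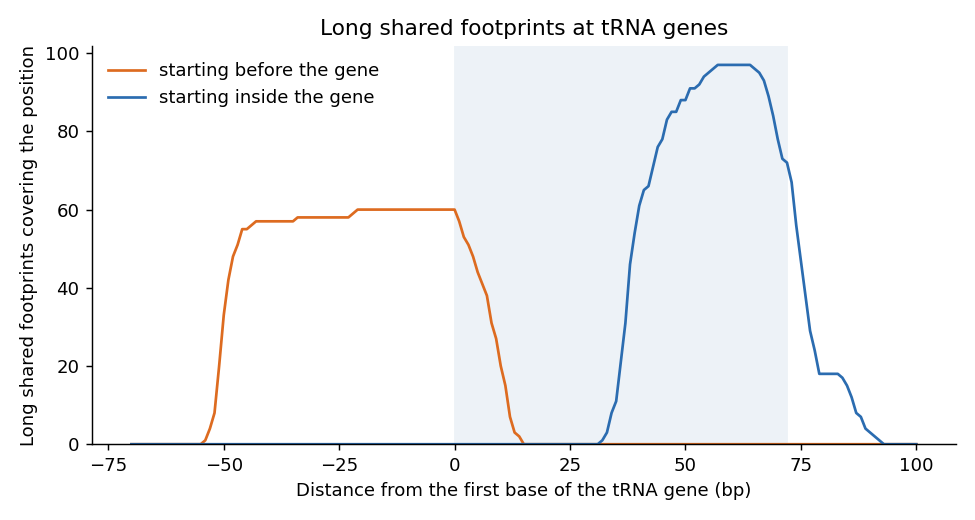
Number of long shared footprints covering each position around tRNA genes, against distance from the first base of the gene along its strand (bp), for the 60 members that start before the gene and the 97 that start inside it. Grey marks the median gene length; the 2 kinds cover separate stretches.

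Relative to GENCODE M21 transcript starts, a smaller share of long than of short shared footprints lay at promoters. Within 500 bp of a start lay 30.4% (29.6 to 31.2) of members, 40.4% (39.8 to 40.9) of short shared footprints and 40.9% of all replicate 1 footprints. For shared footprints of 11 to 29 bp the share was 50.4%. Over 1 kb from every start lay 65.0% of members and 54.8% of short ones. The promoter share of members was the lower in all 19 autosomes, and with the roles of the libraries exchanged the shares were 36.3% and 43.0%. Members with the CTCF consensus had 10.4% within 500 bp of a start and members without it 45.1%. An annotated exon was touched by 18.1% of members, and 35.6% lay inside a gene and outside its exons.

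At promoters the members kept to the upstream side of the start. Of the 3813 within 500 bp, 75.7% (74.3 to 77.1) had their centre upstream, against 61.8% (61.0 to 62.6) of short footprints. The 100 bp upstream of the start held 48.9% of these members and the 100 bp downstream 15.9%, while the shares for short footprints were 35.7% and 25.1%. Protein-coding genes were the nearest start for 87.9% of the 3813, and lincRNA genes for 4.25%.

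**Figure D5:**
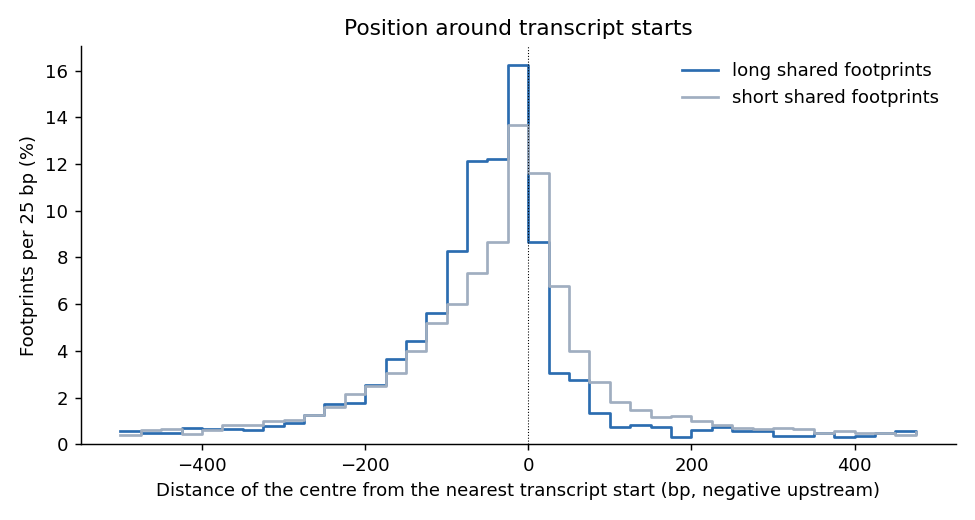
Share of footprints per 25 bp (%) among those within 500 bp of a transcript start, against the distance of the footprint's centre from the nearest start (bp, negative upstream), for long and short shared footprints. Long ones exceed short ones between 100 bp upstream and the start, and are the fewer from the start to 150 bp downstream.

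Members lay in stronger peaks than short footprints in both libraries. A peak of both deposited looser lists surrounded 96.0% (95.7 to 96.4) of members and 82.7% (82.3 to 83.1) of short footprints. Median signal of the peak was 3.95 for members and 1.94 for short footprints in replicate 1, and 1.91 and 1.29 in replicate 2. As a rank among all peaks of the library these medians were the percentiles 88.5 and 77.3 in replicate 1 and 91.4 and 84.9 in replicate 2. The order was the same at promoters, with 10.2 and 5.77 in replicate 1 and 4.05 and 2.47 in replicate 2, and over 1 kb from every start, with 2.90 and 1.19, and 1.57 and 1.02. It held in all 19 autosomes in each library. Shared footprints of 11 to 29 bp had medians near those of members, 3.65 and 1.86 in replicates 1 and 2. By place their medians were lower than those of members, 8.04 and 3.39 at promoters and 1.69 and 1.21 over 1 kb from every start. Since signal differed together with width, its part in the shares of consensus sequences was not tested. Signal of CTCF members, 3.13 and 1.59 in replicates 1 and 2, was below that of members without the consensus, 5.47 and 2.44. These sets differed in place, with 84.7% and 50.6% over 1 kb from every start, and their signal was not split by place.

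Width was shared between the libraries only in part. The median width of members was 35 bp in replicate 1 (quartiles 32 and 42, maximum 85) and that of the replicate 2 footprints over them 31 bp (27 and 38, maximum 75). In replicate 2, 59.98% of these were also at least 30 bp wide, 46.2% at members of 30 to 34 bp and 92.1% at members of 50 bp or more. The replicate 1 footprint was the wider in 74.5% of members, a share that the choice on replicate 1 width affects. With members chosen on replicate 2 instead, both medians were 34 bp and the replicate 1 footprint was the wider in 42.3%. Any overlap with a replicate 2 footprint was seen for 14797 of the long replicate 1 footprints, with 824 covered over 40 to 50% of their length and 1236 over 50 to 60%. The rule retained 82.3% of the 15233 long footprints, against 32.8% of all 309409 autosomal footprints that met the same overlap, a share that the rule itself fixes.

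Base composition depended on the stretch measured. Inside the footprints, GC content was 62.5% for members and 64.5% for short footprints, and lower for members in all 19 autosomes. By place, it was 68.4% and 71.6% within 500 bp of a start, but 59.7% and 59.1% over 1 kb from every start. In a fixed 30 bp window at the centre, members had the higher GC content, 63.8% against 59.8%. CpG dinucleotides numbered 5.56 per 100 bp in members and 6.13 in short footprints, and in the fixed window 5.74 and 5.14, again the reverse order. In windows of the same width 100 bp away, members had 52.0% GC and 3.43 CpG per 100 bp. Wider members were less GC-rich, from 65.0% at 30 to 34 bp to 58.7% at 50 bp or more. Soft-masked repeats took up 7.33% of the bases of members and 7.61% of those of short footprints. Bases with a deposited false discovery rate of the cut rate under 0.05 made up 99.99% or more of member bases in both libraries, and the deposited file listing names these rates among the inputs of the footprint files.

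At promoters, several consensus sequences were more frequent in members without the CTCF consensus than 100 bp away. GC content there was 68.4% in all members and 61.3% in windows 100 bp away, and its part was not tested. SP/KLF, a family of GC-box binding activators, has the letters GGGCGG here. It was found in 24.2% of members within 500 bp of a start and 18.2% of short footprints there. Among promoter members without the CTCF consensus, SP/KLF was at 27.1% and at 13.9% in windows 100 bp away. NRF1, an activator of mitochondrial and housekeeping genes, was at 6.32% of promoter members and 1.73% of short footprints. The CRE, bound by CREB-family proteins, has the letters TGACGTCA and was at 2.73% and 0.277%. ZBTB33, also called Kaiso, was at 0.865% and 0.364%. In promoter members without the CTCF consensus, NRF1 was at 7.36%, the CRE at 3.19% and ZBTB33 at 1.01%. Windows 100 bp from these members held them in 1.47%, 0.460% and 0.260%. Over 1 kb from every start, ZBTB33 was found in 0 of 8152 members, which allows a share of up to 0.0368%. For EGR, the immediate early zinc finger family with the letters GCGTGGGCG, the count was 22 of 12534 members, or 0.176%, beside 0.0479% in windows 100 bp away. In promoter members without the CTCF consensus EGR was at 0.490%, against 0.138% in windows 100 bp away. By rule, the pair of members in the strongest peaks is shown for each, with the consensus in capitals:
NRF1 at Snrnp70, chr7:45395780-45395811, + strand: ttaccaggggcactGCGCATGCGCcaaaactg
NRF1 at Nup107, chr10:117792797-117792828, - strand: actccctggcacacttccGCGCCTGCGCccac
CRE at Ube2h, chr6:30304550-30304585, + strand: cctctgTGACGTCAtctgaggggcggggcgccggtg
CRE at Lrrc8a, chr2:30237653-30237682, + strand: tccggccgTGACGTCActtccggggcgggg
ZBTB33 at Ireb2, chr9:54863676-54863714, + strand: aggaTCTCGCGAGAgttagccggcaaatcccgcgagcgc
ZBTB33 at Ercc6l2, chr13:63815153-63815192, + strand: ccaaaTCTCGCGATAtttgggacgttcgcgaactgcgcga
EGR at Pabpc1, chr15:36608993-36609035, - strand: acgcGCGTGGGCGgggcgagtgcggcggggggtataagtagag
EGR at Lgmn, chr12:102439864-102439900, + strand: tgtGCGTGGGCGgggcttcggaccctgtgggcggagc
Both members with the CRE also hold the SP/KLF letters outside the capitals, within the same footprint.

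Away from starts, the consensus of the nuclear factor I proteins and an E-box were more frequent in members without CTCF than in windows 100 bp away. The full palindromic NFI site, bound by a dimer with roles in glial and neuronal differentiation, was at 0.933% of all members, 0.573% of short footprints and 0.0678% of windows 100 bp away. The single NFI site, TTGGCA, had the opposite order between the sets, with 3.45% of members and 5.65% of short footprints, and 4.05% and 8.27% over 1 kb from every start. Members had the larger share of it in 0 of 19 autosomes. Members without the CTCF consensus held the single NFI site in 5.02%, against 1.93% in windows 100 bp away. Over 1 kb from every start these shares were 7.45% and 2.39%. The E-box CAGCTG was likewise at 2.60% of members and 4.56% of short footprints, with members above in 0 of 19 autosomes. In members without the CTCF consensus CAGCTG was at 3.27%, against 1.93% in windows 100 bp away. The E-box CAGATG, read by neurogenic bHLH proteins such as the NEUROD family, was found in 8.64% of members over 1 kb from every start and in 8.57% of short footprints there. Its letters can form part of the CTCF consensus, as at Prok2 above. Among members over 1 kb away without the CTCF consensus it was at 10.5%, against 2.77% in windows 100 bp away. RFX, a family that binds a symmetrical X box, was at 0.511% of members and 0.658% of short footprints. Its order depended on place, with 0.734% and 0.393% at promoters and 0.393% and 0.862% over 1 kb from every start. Members without the CTCF consensus held RFX in 0.829%, against 0.269% in windows 100 bp away. YY1, with the letters AANATGGC, was at 1.37% of members and 1.06% of short footprints. Their pairs of members are:
NFI near Bahcc1, chr11:120231677-120231707, + strand: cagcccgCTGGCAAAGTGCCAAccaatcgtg
NFI near Atoh8, chr6:72216812-72216854, + strand: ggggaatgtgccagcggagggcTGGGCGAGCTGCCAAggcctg
E-box at Ing2, chr8:47675161-47675200, - strand: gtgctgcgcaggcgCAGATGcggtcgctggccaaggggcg
E-box at Hspa2, chr12:76404026-76404068, - strand: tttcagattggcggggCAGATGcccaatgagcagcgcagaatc
RFX at Cyp46a1, chr12:108334053-108334092, + strand: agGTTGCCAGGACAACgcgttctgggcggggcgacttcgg
RFX at Hsph1, chr5:149636398-149636430, + strand: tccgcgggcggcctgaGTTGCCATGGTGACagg
YY1 at Hexim2, chr11:103132841-103132875, + strand: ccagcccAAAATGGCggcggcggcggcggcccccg
YY1 near Cdh20, chr1:102628153-102628205, - strand: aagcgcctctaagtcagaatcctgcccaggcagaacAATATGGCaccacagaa
Of these 8 members, only those near Atoh8 and Cdh20 lay over 500 bp from every start. Whether the sequence near Cdh20 has other copies in the genome, from which reads could come, was not checked. The E-box was at 2.02% of promoter members.

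Some letters were rarer in members than next to them. GC content was also lower next to members, 52.0% against 62.5%, and the windows were not matched for it. Its part in the shares of consensus sequences was not tested. The homeodomain core TAATTA was at 0.0638% of members, 0.379% of short footprints and 0.734% of windows 100 bp away. For the TATA box letters TATAAA the values were 0.415%, 0.587% and 1.46%, but within 500 bp of a start they were at 0.813% of members and 0.357% of short footprints. Promoter members without the CTCF consensus held them in 0.950%, against 0.720% in windows 100 bp away. For AP-1, TGANTCA, the values were 0.383%, 0.831% and 0.858%. The long site of the neuronal gene repressor REST, searched with up to 3 mismatches, was in 10 members, 0.0798%, and in 0.197% of short footprints. No factor consensus of those searched was present in 3886 members, 31.0%. Their median width was 35 bp, as for all members, and 34.7% of them lay within 500 bp of a start. The search covered only the central 40 bp of each member. The share without any consensus was not counted in short footprints or in windows 100 bp away, so the 31.0% has no background value.

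Of the 10 widest members in peaks of both libraries, 6 lay within 500 bp of a protein-coding start, 3 held at least 2 CCAAT boxes, 2 touched a tRNA gene and 0 held the CTCF consensus. CCAAT, read by NF-Y, was counted inside the footprint on both strands. At promoters, 6.10% of the 1985 members of 30 to 34 bp held a box and 29.6% of the 159 of 50 bp or more. In windows of the same widths 100 bp away the shares were 5.14% and 10.1%. At least 2 boxes were present in 2 of the 1985 and in 10 of the 159. In the 21 promoter members with exactly 2 boxes, the median distance between them was 17 bp (quartiles 17 and 24). The 5 widest members that lie in peaks of both libraries outside untranslated regions are shown on the + strand with CCAAT boxes of either strand in capitals:
Nfat5, chr8:107293358-107293442, + strand: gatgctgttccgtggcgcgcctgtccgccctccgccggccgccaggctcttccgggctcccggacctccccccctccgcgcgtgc
Top2a, chr11:99024230-99024305, + strand: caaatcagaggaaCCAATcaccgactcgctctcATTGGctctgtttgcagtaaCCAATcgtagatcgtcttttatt
Peak1, chr9:56223579-56223652, + strand: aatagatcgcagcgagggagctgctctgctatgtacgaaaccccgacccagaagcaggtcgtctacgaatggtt
Gm21119, chr8:20550230-20550298, + strand: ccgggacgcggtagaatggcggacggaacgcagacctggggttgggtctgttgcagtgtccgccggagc
Ccdc66, chr14:27508493-27508559, + strand: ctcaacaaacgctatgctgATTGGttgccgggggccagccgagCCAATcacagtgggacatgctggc
Further promoter members with 2 boxes in strong peaks, picked after the counts were seen, were:
Pan2, chr10:128303285-128303330, + strand: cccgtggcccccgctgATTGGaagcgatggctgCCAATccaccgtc
Cnot1, chr8:95807538-95807587, - strand: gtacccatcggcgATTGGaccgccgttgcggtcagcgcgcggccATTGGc

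The widest of all, 85 bp, lay 70 bp upstream of Nfat5, which encodes the transcription factor of the response to osmotic stress. The footprint of replicate 2 over it was 48 bp wide. Its peaks had signals of 20.5 (replicate 1) and 5.40 (replicate 2). At Top2a, the gene of DNA topoisomerase II alpha, the 76 bp member with 3 CCAAT boxes was matched by a 74 bp footprint in replicate 2. That peak had a signal of 5.99 and 7.80, at the percentiles 92.7 and 99.6 of its library. The member at Zmynd8, a chromatin reader gene, was 72 bp wide, overlapped an exon and held 3 boxes. Its replicate 2 width was 58 bp.

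The remaining 7 of the 10 widest lay at varied places. The 74 bp member nearest to Peak1 was in an intron, with a signal of 7.17 and 1.59. Its centre lay 155.5 bp downstream of the start of Gm24270, and 20449.5 bp from the nearest protein-coding start. Whether reads at this member, or at the other widest members, also match other places in the genome was not checked. The 69 bp member nearest to Gm21119 lay between genes on chromosome 8 and was 70 bp wide in replicate 2. An intronic member of 66 bp at Il31ra, a cytokine receptor gene, lay in the strongest peaks of these 10, with a signal of 63.0 and 21.3. At Dnm2, which encodes the endocytic GTPase dynamin 2, the 66 bp member lay 42.5 bp upstream of the start and was 44 bp wide in replicate 2. Members of 67 and 66 bp nearest to Eef2k and Knl1 were front members of the tRNA genes n-TLtag1 and n-TSgct7, 64 and 38 bp wide in replicate 2. Ccdc66, a gene for a cilium protein, had a 67 bp member 66 bp upstream of its start, 59 bp wide in replicate 2.

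Of 20698 autosomal protein-coding genes, 15.7% had a member within 1 kb of a transcript start and 39.8% had a short shared footprint there. The number of genes with 1 member was 2588, with 2 members 566, with 3 members 86, with 4 members 16 and with 5 members 3. Those with 5 were Hnrnpul1, a gene for an RNA-binding protein, and Alg5 and Exosc8, which share the same members because they start close together in opposite directions. Exosc8 encodes a subunit of the RNA exosome and Alg5 an enzyme of N-glycosylation. Their members were 44, 40, 38, 33 and 32 bp wide. The strongest peak at them had a signal of 12.3 and 3.18, and in replicate 1 it held all but the 32 bp one. Hnrnpul1 had members of 45, 39, 36, 34 and 32 bp, and the strongest peak at them had a signal of 19.8 and 9.12.

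Further genes named by the count had 4 members each. Snrnp70, which encodes a protein of the U1 splicing particle, had the strongest of these peaks, with a signal of 29.7 and 12.5. Zfp143, itself the gene of a promoter-binding zinc finger protein, followed with 27.3 and 13.0. Nap1l4, a histone chaperone gene, had 23.0 and 9.97 with members up to 54 bp. Arl6ip6 had 22.1 and 7.90. Hexim2, an inhibitor of the elongation factor P-TEFb, had 21.7 and 10.99. At Jarid2, a subunit of the Polycomb repressive complex PRC2, the values were 15.9 and 8.63. Most peaks held few members: of the replicate 1 peaks with any, 10423 held 1 and 7 held 4, among them those at Zfp143, Nap1l4, Hip1 and the Exosc8 start.

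The 14 gene lists of 12 genes each were read against the 15.7% of all protein-coding genes. Splicing and RNA-binding genes had a member at 8 of 12, with 4 at Snrnp70, 2 at Hnrnpa2b1 (widths 48 and 40 bp, signal 20.2 and 7.34) and 1 of 51 bp at Hnrnpc (28.8 and 12.7). Immediate early genes, which neurons switch on within minutes of activity, had 1 at 6 of 12. Egr1 had one of 33 bp with a signal of 16.5 and 5.60, Btg2 one of 31 bp with 13.2 and 4.89, and Dusp1 one of 32 bp with 10.4 and 3.67. Ribosomal protein genes had members at 4 of 12, among them 2 at Rpl7a (24.1 and 8.15), 2 at Rpl3 (12.4 and 7.40) and 1 at Rplp0 (28.7 and 11.6). Mitochondrial respiration genes had members at 3 of 12, which were Atp5b with 2 (13.6 and 9.80), Ndufb5 (14.0 and 8.49) and Ndufa9 (10.4 and 5.10). Short shared footprints were also frequent there, beside 39.8% of all protein-coding genes. They were at 9 of 12 splicing, 11 of 12 immediate early, 9 of 12 ribosomal protein and 10 of 12 mitochondrial genes.

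Of the cell type lists, excitatory neuron genes had members at 4 of 12. Among these were Grik4, a kainate receptor subunit, with 2 and a signal of 8.01 and 2.69, Zbtb20 with 6.20 and 2.67, and Tbr1 with 1.59 and 2.56. Pan-neuronal genes had 1 of the 11 on autosomes, Elavl4, whose 45 bp member held the CTCF consensus and lay in a peak of 3.18 and 1.07. Among astrocyte genes Glul, the glutamine synthetase gene, had a 32 bp member outside the peaks of both libraries. Inhibitory neuron genes, microglia genes, vessel genes and germline genes had 0 of 12 each, and oligodendrocyte lineage genes 0 of 11. Liver and striated muscle genes had 1 of 12 each, Apob (2.89 and 1.32) and Mylpf (7.27 and 5.31). Short shared footprints were at 6 excitatory neuron, 7 pan-neuronal and 6 astrocyte genes. They were at 2 inhibitory neuron and 2 oligodendrocyte lineage genes, 0 microglia genes, and 1 gene each of the vessel, germline, liver and muscle lists. With 12 genes to a list, 1 gene moves a share by 8.33 percentage points.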

How the data were processed

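DNase-seq of 2 libraries was used, with all values from files the authors deposited. Per the labels, files use mm10, with aligner, peak caller and footprint caller not given in the sources used here. Footprints carry a deposited score of 0.01 in every row, so they were not ranked. The peak signal is the authors' value per peak, of unstated scaling, and was compared within a library. The deposited FDR (q-value) files list runs under 0.05. Each file came from 1 library's own alignment, per the deposited file listing.

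Computed here, with Python 3.11.15, numpy 2.4.6, pandas 2.3.3, scipy 1.17.1 and matplotlib 3.10.9: overlap by width, distance to GENCODE M21 transcript starts, RefSeq tRNA genes, base composition on GRCm38.p6, and consensus letters on both strands in 40 bp windows and in windows 100 bp away. Interval overlap, distance to starts and the consensus search were tested on simulated data, and the other steps were not. Genes were named by count of members, by width and from the lists, and some of these genes are not reported here; sequences from chromosome 18 and untranslated regions were not printed. Members and lists were chosen with earlier results of these data known. No test was run; 63 alternatives were tried. Chromosomes X and Y were left out.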

Additional observations from a re-analysis of the deposited data

Results flagged for a closer look

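Chromosome X lies outside the autosomal rule. It held 213 footprints of replicate 1 that were at least 30 bp wide and covered over at least 50% of their length by a replicate 2 footprint, of 6851 on that chromosome. They made up 3.11% of its footprints, against 4.05% for autosomes. Of its long footprints 78.3% were shared, against 82.3% on autosomes. These footprints enter no other value, and the count is given because it was not used elsewhere.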

How the results depend on the processing

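Of 63 alternatives to 9 results, 27 stayed within 1.5 times the count, the 95% exact binomial interval, or 1 SD between libraries (signal percentile and FDR), and 36 moved further. Of these, 3 (0 and 2 CTCF mismatches, and tRNA genes left out) were chosen after seeing the data. With width limits of 25 and 35 bp the count was 21057 and 6362. The promoter share was 36.3% with the libraries' roles exchanged, 28.7% at 35 bp, 25.8% with protein-coding starts or gene 5′ ends only, and 34.96% within 1 kb. Signal percentile, 89.9 as reported, was 83.2 with the stricter peak list and 86.5 over 1 kb from starts. GC content was 63.5% with roles exchanged, 60.6% at 35 bp, 63.8% in 30 bp windows and 59.7% over 1 kb away. CpG per 100 bp was 6.24, 5.74 and 3.36 with roles exchanged, in 30 bp windows and over 1 kb away. CTCF share was 37.8% with roles exchanged, 55.1% over 1 kb away, 16.5% with 0 mismatches and 58.1% with 2. The share of genes was 14.3% at 500 bp and 17.6% at 2 kb. FDR under 0.01 covered 99.58% of bases against 99.9958% under 0.05. Soft-masked bases were 7.23% with roles exchanged and 7.63% over 1 kb away. Without replicate 2 or replicate 1, values ranged from 31.8 to 32.9% (promoters), 61.1 to 62.5% (GC), 5.55 to 5.65 (CpG), 35.8 to 37.0% (CTCF), 18.04 to 18.9% (genes), 99.9899 to 99.9921% (FDR) and 7.83 to 8.13% (soft-masked). The causes were not tested. No paired analysis was possible because there is 1 group. Depth is unknown, and 2 libraries limit every value.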
